A study of Mus musculus with 24 samples.

Results

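The genes described here encode the MHC class I molecule and the machinery that loads it with peptide: the heavy chains H2-K1 and H2-D1, the light chain B2m, the peptide transporter subunits Tap1 and Tap2, tapasin (Tapbp) and the trimming peptidase Erap1. These 7 genes were found by symbol among the 12759 transcripts listed in the count tables, and all 7 had a row in every table. The list is taken to have been chosen by ribosome footprints in KO versus ctrl cells under Torin1, so that contrast is given as a description with no test. The other comparisons with Torin1 share libraries with it and are not independent of the choice. The comparison of KO with ctrl in DMSO shares no library with it.

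The cells were mouse N2a, a neuroblastoma line. Ctrl cells had received the empty pSpCas9(BB)-Puro vector, and eIF4E3 KO cells the same vector with 3 gRNAs against exons 1, 2 and 4 of Eif4e3, which encodes a cap-binding protein of the eIF4E family. Both were selected with puromycin, and the KO cells are not stated to be a clone. Cells of each genotype received 250 nM Torin1, which blocks the mTOR kinase, or its solvent DMSO over 2 h, and both mRNA (RNA-seq, 12 libraries, 3 per condition) and ribosome footprints (Ribo-seq, 11 libraries, 3 per condition except 2 for ctrl DMSO) were sequenced. Replicates are different passages of the cells. The comparisons ask how Torin1 changes the mRNA and its translation, and whether that depends on eIF4E3.

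Class I molecules display peptides from inside the cell to CD8 T cells. Peptides cut by the proteasome are pumped into the endoplasmic reticulum by the TAP transporter, made of Tap1 and Tap2, and are shortened there by Erap1. Tapasin holds the empty heavy chain and B2m beside the transporter until a peptide binds, and neuroblastoma cells are known for low class I levels at their surface. All members except B2m (chromosome 2) and Erap1 (chromosome 13) lie on chromosome 17, in or beside the H2 complex.

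Reads of the heavy chains cannot be fully assigned to 1 gene. In GRCm38, the coding sequences of H2-K1 and H2-D1 were 91.5% identical. Of all coding windows of 30 nt, about the length of a footprint, 32.2% in H2-K1 and 42.3% in H2-D1 also occurred in another listed transcript. For Tap1 and Tap2 this was 2.10% and 2.16%, shared with each other, and for B2m, Tapbp and Erap1 it was 0%. In addition, N2a cells come from strain A mice, whose H2 alleles differ from those of the C57BL/6J reference genome. The following window of exon 4 (H2-K1 chr17:33997376-33997405, minus strand; H2-D1 chr17:35265939-35265968, plus strand) shows why a footprint there has no single source, since it was identical in H2-K1, H2-D1 and H2-Q10 and in other H2 class I genes. Capitals mark bases that differ from H2-K1.

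H2-K1: cctgcaggggatggaaccttccagaagtgg
H2-D1: cctgcaggggatggaaccttccagaagtgg
H2-Q10: cctgcaggggatggaaccttccagaagtgg
H2-Q4: cctTcaggggatggaaccttccagaagtgg

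A window of exon 3 (H2-K1 chr17:33999348-33999377, minus strand; H2-D1 chr17:35264008-35264037, plus strand), the exon for part of the peptide groove, is shown as one that tells the genes apart in the reference. Whether it does so for the alleles of N2a cells was not tested. It differed from H2-K1 at 10 bases in H2-D1 and at 7 in each of H2-Q4 and H2-Q10.

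H2-K1: ggagcaggctggtgaagcagagagactcag
H2-D1: ggagcagAGtggtgCTgcagagCATTAcaA
H2-Q4: ggagcaggctggtgCTAcagagaAaAGcaA
H2-Q10: ggagcaggctggtgCTgcagagTATTAcag

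The libraries held 17047795 to 28910907 RNA-seq counts and 669010 to 5284909 footprint counts, the shallowest being ctrl DMSO replicate 3. Eif4e3 was at 12.0 to 18.2 CPM in ctrl and 2.88 to 5.04 CPM in KO mRNA, and at 11.6 to 22.0 CPM in ctrl and 2.29 to 6.61 CPM in KO footprints, lower in every KO than in every ctrl library. CPM stands for counts relative to library size, after TMM scaling over all libraries of an assay. Of 13 sympathoadrenal markers, 12 were listed (summed mRNA 2540 to 3250 CPM). Of 14 leukocyte markers, 3 were listed in RNA-seq (Cd68, Cd74 and Laptm5, summed 54.6 to 94.7 CPM) and 1 in Ribo-seq (Cd74, 92.0 to 206 CPM). Fibroblast and endothelial markers summed to at most 2.75 and 5.16 CPM of mRNA.

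Per kb of coding sequence, B2m was the most abundant member in ctrl DMSO cells in both assays. Its mRNA stood at 424 ± 62.4 CPM per kb (SD, n = 3), followed by H2-K1 at 227 ± 21.1 and H2-D1 at 195 ± 15.0. Lower came Tap2 at 45.6 ± 9.10, Tapbp at 38.8 ± 5.83, Erap1 at 11 ± 0.515 and Tap1 at 8.70 ± 1.81 CPM per kb. H2-K1 overlapped with H2-D1, and Tap2 with Tapbp. Footprints per kb had the order B2m (1421 ± 545, n = 2), H2-K1 (494 ± 59.6), H2-D1 (459 ± 33.1), Tapbp (92.0 ± 9.10), Tap2 (75.0 ± 6.97), Erap1 (23.8 ± 3.31) and Tap1 (13.3 ± 1.29). In KO Torin1 cells Erap1 (36.4 ± 0.712, n = 3) stood above Tapbp (16.9 ± 3.56), Tap2 (13.2 ± 4.12) and Tap1 (3.46 ± 0.528), with Tapbp and Tap2 overlapping.

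Torin1 lowered the footprints of 5 members in KO cells (H2-K1, H2-D1, Tap1, Tap2 and Tapbp) and of 2 in ctrl cells (Tap2 and Tapbp), at an adjusted p under 0.05 in edgeR's quasi-likelihood test. Of all transcripts tested, 40.6% passed in KO cells (22.1% lower) and 15.6% in ctrl cells (9.93% lower). The median footprint change of the members was -1.13 log2 in KO and -0.27 log2 in ctrl cells, beside 0.02 over all transcripts in each. All Torin1 libraries here also belong to the contrast behind the choice, so these calls are not independent of it. In ctrl cells, with 2 DMSO libraries, footprints of the same 5 members lay lower with Torin1 without overlap, as did 2313 of 10543 transcripts. Only Tap2 mRNA passed, being lower in both genotypes, where 2.73% of transcripts passed in ctrl (0.675% lower) and 9.97% in KO (3.74% lower). With replicate number (passage) as a block, the count for KO mRNA was 3, with H2-K1 (adjusted p = 0.0343) and Tap1 (adjusted p = 0.0166) added to Tap2. In bulk RNA, fewer expressing cells and less RNA per cell cannot be told apart.

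**Figure D1:**
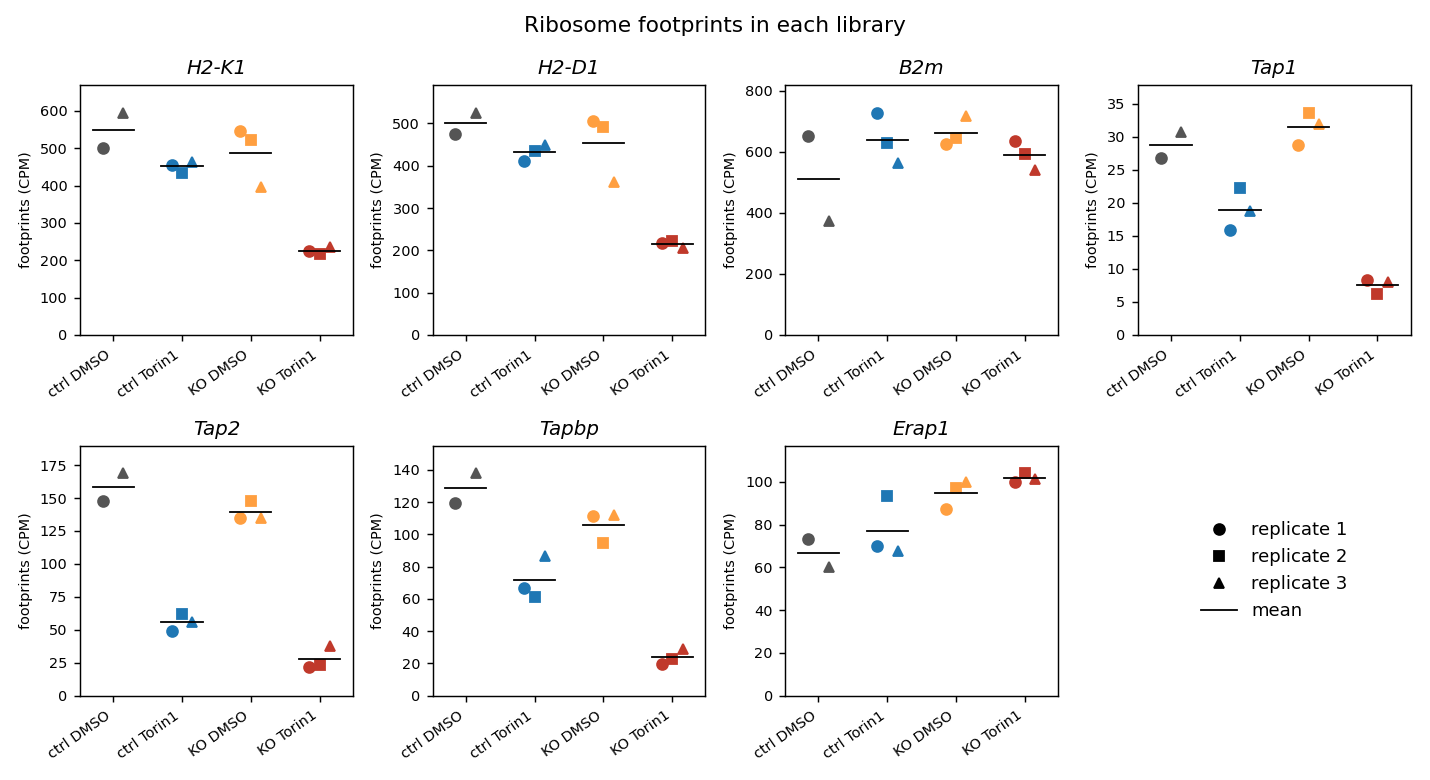
Footprint level (CPM after TMM scaling) of each member in each Ribo-seq library, by condition; each point is a library, bars are means, and each panel has its own axis. H2-K1 and H2-D1 sit between 205 and 235 CPM in KO Torin1 cells and at 362 CPM or more in all other libraries, while B2m stays between 373 and 728 CPM and Erap1 between 60.0 and 104 CPM.

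The classical heavy chains present peptide to T cells. H2-K1 footprints were 502 and 595 CPM in ctrl DMSO (replicates 1 and 3), 455, 434 and 464 in ctrl Torin1, 547, 521 and 396 in KO DMSO, and 226, 216 and 235 CPM in KO Torin1. The KO Torin1 libraries lay below all others, and the ctrl Torin1 libraries below ctrl DMSO. In KO cells footprints fell by 1.13 log2 with Torin1 (SE 0.12, adjusted p = 2.84e-09), while in ctrl cells the difference was -0.27 (SE 0.14, adjusted p = 0.21). H2-K1 mRNA was 253, 276 and 229 CPM in ctrl DMSO, 200, 215 and 208 in ctrl Torin1, 225, 274 and 208 in KO DMSO, and 198, 212 and 187 CPM in KO Torin1. The mRNA overlapped between treatments in KO cells and did not overlap in ctrl cells, with differences of -0.24 (SE 0.10) and -0.28 (SE 0.11) log2 that did not pass the test. With the replicate block edgeR's test gave an adjusted p of 0.0343 in KO and 0.147 in ctrl cells.

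H2-D1 followed the same course. Its footprints were 474 and 525 CPM in ctrl DMSO, 411, 435 and 450 in ctrl Torin1, 506, 492 and 362 in KO DMSO, and 217, 221 and 205 CPM in KO Torin1. They fell by 1.10 log2 with Torin1 in KO cells (SE 0.12, adjusted p = 7.32e-09) and differed by -0.20 (SE 0.14, adjusted p = 0.349) in ctrl cells. H2-D1 mRNA ranged over 197 to 229 CPM in ctrl DMSO, 177 to 186 in ctrl Torin1, 176 to 223 in KO DMSO and 169 to 188 CPM in KO Torin1, and its changes with Torin1 (-0.22 in ctrl and -0.14 log2 in KO) did not pass. The ratio of H2-K1 to H2-D1 counts stayed within 0.978 to 1.15 in footprints and 1.05 to 1.23 in mRNA over all libraries.

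Because the heavy chains share windows, all listed H2 class I rows were also summed. H2-K1 and H2-D1 made up 55.2% to 57.5% of the summed footprints (18 rows) and 67.7% to 75.9% of the summed mRNA (15 rows). The sum fell by 1.12 log2 in footprints with Torin1 in KO cells (SE 0.11, adjusted p = 9.11e-10) and differed by -0.28 in ctrl cells (SE 0.13, adjusted p = 0.182). The summed mRNA differed by -0.15 (SE 0.09, adjusted p = 0.315) in KO and by -0.26 (SE 0.12, adjusted p = 0.218) in ctrl cells. The footprint fall in KO cells was as large in the sum, where reads need not be assigned among the summed rows. The 2 members make up most of the summed footprints, so the sum is not independent of them. Gm8909, Gm7030 and Gm11127 were not in the sum, though 15.4%, 12.6% and 11.8% of H2-D1 windows also occurred in them.

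B2m pairs with every class I heavy chain. Its footprints were 650 and 373 CPM in ctrl DMSO, 728, 627 and 565 in ctrl Torin1, 625, 644 and 718 in KO DMSO, and 634, 592 and 539 CPM in KO Torin1. The groups overlapped, and the shallow ctrl DMSO replicate 3 (230 counts) was the lowest. The change with Torin1 was -0.19 log2 in KO cells (SE 0.11, adjusted p = 0.159) and 0.29 in ctrl cells (SE 0.19, adjusted p = 0.32). In ctrl cells it was 0.78 (adjusted p = 0.00604) without ctrl DMSO replicate 1 and -0.03 (adjusted p = 0.931) without replicate 3, and 0.36 (adjusted p = 0.0365) with the replicate block. B2m mRNA lay between 127 and 171 CPM in all libraries.

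Heavy chain and light chain footprints can be set side by side per kb of coding sequence. The summed H2-K1 and H2-D1 level over B2m was 0.246 ± 0.019 in KO Torin1 (SD, n = 3), 0.471 ± 0.110 in KO DMSO, 0.458 ± 0.070 in ctrl Torin1 and 0.737 ± 0.348 (n = 2) in ctrl DMSO. KO Torin1 libraries (0.229 to 0.267) lay below all others (0.346 to 0.983). In mRNA the condition means of this ratio were 0.956 to 1.03. These ratios are given as values with no test.

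Tap1 and Tap2 form the transporter and sit side by side on chromosome 17. Tap2 footprints were 148 and 169 CPM in ctrl DMSO, 49.2, 62.0 and 56.2 in ctrl Torin1, 135, 148 and 135 in KO DMSO, and 22.0, 23.5 and 37.7 CPM in KO Torin1. The groups did not overlap between treatments in either genotype. With Torin1 they fell by 1.47 log2 in ctrl (SE 0.16, adjusted p = 3.15e-06) and by 2.37 log2 in KO cells (SE 0.16, adjusted p = 6.08e-14). Tap2 mRNA was 78.4, 117 and 93.8 CPM in ctrl DMSO, 54.7, 64.4 and 59.7 in ctrl Torin1, 84.4, 93.0 and 82.5 in KO DMSO, and 47.3, 50.6 and 58.5 CPM in KO Torin1. It fell by 0.69 log2 in ctrl (SE 0.15, adjusted p = 0.0307) and by 0.73 log2 in KO cells (SE 0.09, adjusted p = 0.000575), without overlap. The call in ctrl cells was lost without any single ctrl Torin1 library (adjusted p = 0.161, 0.104 and 0.116 without replicates 1, 2 and 3).

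Tap1 was the least abundant member. Its footprints were 26.8 and 30.8 CPM in ctrl DMSO, 15.9, 22.2 and 18.7 in ctrl Torin1, 28.8, 33.7 and 32.0 in KO DMSO, and 8.37, 6.22 and 8.0 CPM in KO Torin1, the last resting on 13 to 19 counts per library. All Torin1 libraries lay below the DMSO libraries of their genotype. The fall with Torin1 was significant in KO cells (-2.08 log2, SE 0.23, adjusted p = 8.16e-09), and the difference in ctrl cells was -0.53 (SE 0.26, adjusted p = 0.174). Tap1 mRNA ranged over 15.0 to 22.9 CPM in ctrl DMSO, 12.9 to 15.3 in ctrl Torin1, 14.0 to 20.4 in KO DMSO and 11.7 to 13.6 CPM in KO Torin1. Its mRNA changes were -0.45 (SE 0.17, adjusted p = 0.163) in ctrl and -0.47 log2 (SE 0.14, adjusted p = 0.0591) in KO cells. With the replicate block edgeR's test gave an adjusted p of 0.0841 in ctrl and 0.0166 in KO cells.

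Tapbp bridges the transporter and the heavy chain. Its footprints were 120 and 138 CPM in ctrl DMSO, 66.6, 61.1 and 86.8 in ctrl Torin1, 111, 94.5 and 112 in KO DMSO, and 19.4, 22.5 and 29.2 CPM (44 to 51 counts) in KO Torin1. The conditions formed separate steps, with KO Torin1 lowest. With Torin1 they fell by 0.82 log2 in ctrl (SE 0.18, adjusted p = 0.00373) and by 2.19 log2 in KO cells (SE 0.16, adjusted p = 6.36e-13). Tapbp mRNA was 45.0, 58.2 and 59.9 CPM in ctrl DMSO, 53.3, 49.1 and 49.6 in ctrl Torin1, 61.1, 58.3 and 51.8 in KO DMSO, and 51.0, 47.5 and 47.6 CPM in KO Torin1. Its mRNA levels overlapped between treatments in ctrl cells and lay lower with Torin1 without overlap in KO cells, and the differences of -0.10 (SE 0.14) and -0.23 log2 (SE 0.09) did not pass.

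Erap1 trims the amino end of peptides. Its footprints were 73.1 and 60.0 CPM in ctrl DMSO, 70.2, 93.5 and 67.5 in ctrl Torin1, 87.3, 97.2 and 99.7 in KO DMSO, and 100, 104 and 101 CPM in KO Torin1. The KO Torin1 libraries were the highest, just above KO DMSO. The change with Torin1 was 0.17 log2 in ctrl (SE 0.19, adjusted p = 0.591) and 0.08 in KO cells (SE 0.12, adjusted p = 0.638). Erap1 mRNA lay between 28.9 and 39.0 CPM throughout.

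**Figure D2:**
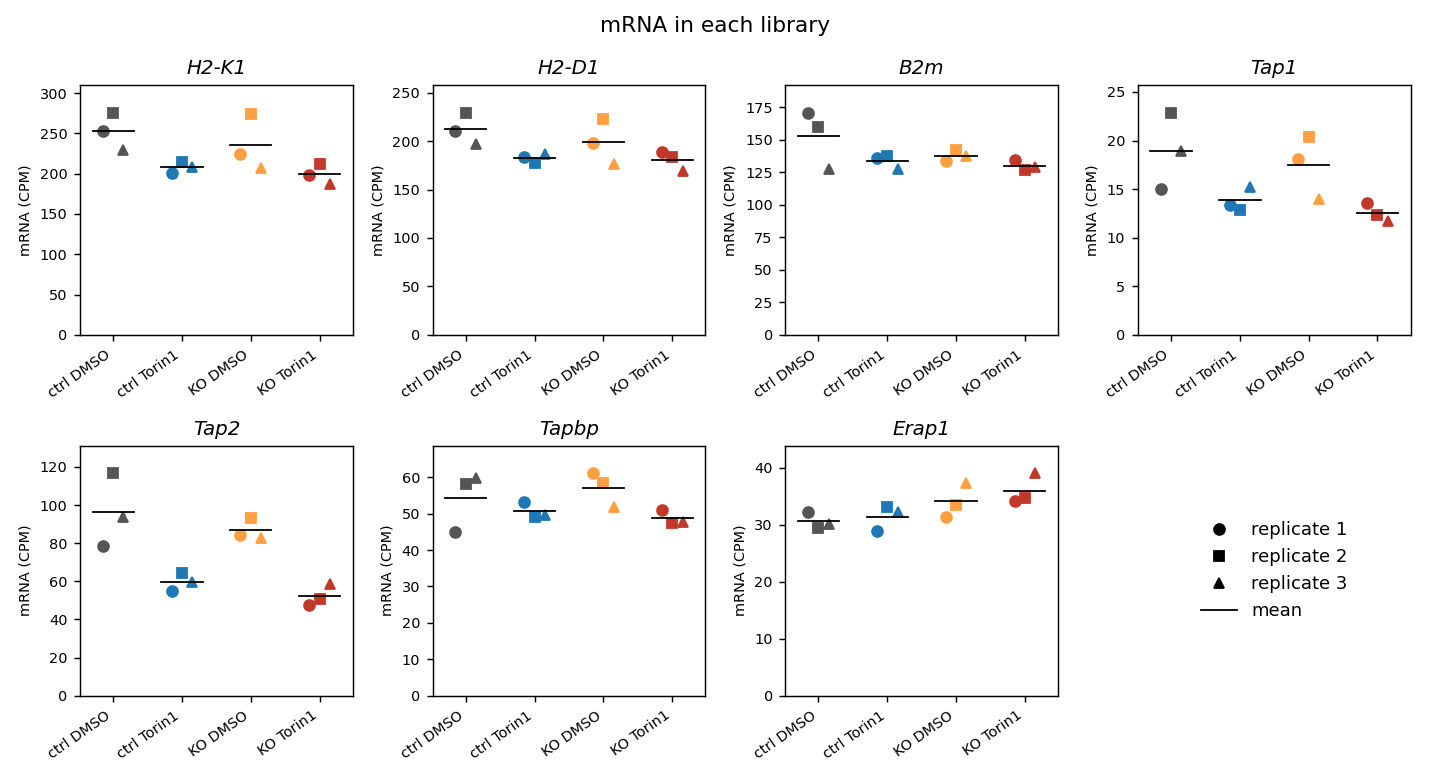
mRNA level (CPM after TMM scaling) of each member in each RNA-seq library, by condition; each point is a library, bars are means, and each panel has its own axis. Tap2 is lower with Torin1 in both genotypes (47.3 to 64.4 CPM, against 78.4 to 117 CPM in DMSO), and the other members differ less between conditions.

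Translational efficiency (TE) is the footprint level divided by the mRNA level, and its change was tested as the interaction of assay and condition. In KO cells 5 members lost TE with Torin1, where 28.4% of transcripts passed (17.8% lower). The fall was 1.97 log2 for Tapbp (SE 0.18, adjusted p = 6.62e-09), 1.65 log2 for Tap2 (SE 0.19, adjusted p = 3.3e-07), 1.62 log2 for Tap1 (SE 0.28, adjusted p = 7.94e-05), 0.96 log2 for H2-D1 (SE 0.16, adjusted p = 4.52e-05) and 0.89 log2 for H2-K1 (SE 0.16, adjusted p = 0.000142). B2m (-0.11, SE 0.12, adjusted p = 0.549) and Erap1 (0.00, SE 0.15, adjusted p = 0.996) did not pass. In ctrl cells no member passed, where 4.72% of transcripts did, and 2 of 7 had an unadjusted p under 0.05. The nearest were Tap2 at -0.78 (SE 0.23, adjusted p = 0.0587) and Tapbp at -0.73 log2 (SE 0.23, adjusted p = 0.0856), and with the replicate block Tap2 passed (adjusted p = 0.0152).

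As ratios, each footprint library was divided by the mean mRNA of its condition, so the SD holds the spread of footprints only. Tapbp went from a TE of 2.37 ± 0.234 (n = 2) in ctrl DMSO to 1.41 ± 0.268 in ctrl Torin1, and from 1.86 ± 0.175 in KO DMSO to 0.486 ± 0.103 in KO Torin1 (SD, n = 3). Its percentile among 10376 transcripts was 90.6 in the first of these and 21 in the last. Tap2 had a TE of 1.64 ± 0.153, 0.936 ± 0.107, 1.61 ± 0.086 and 0.532 ± 0.166 in the same order. Tap1 had 1.52 ± 0.148, 1.37 ± 0.228, 1.80 ± 0.140 and 0.599 ± 0.091. H2-K1 kept a TE of 2.07 to 2.17 in the other conditions and had 1.13 ± 0.047 in KO Torin1, and H2-D1 had 2.28 to 2.37 and 1.19 ± 0.047. B2m (3.36 to 4.81) and Erap1 (2.18 to 2.83) stayed above the median of all transcripts, which was 0.908 to 0.935, as did H2-K1 and H2-D1. In KO Torin1 the mean TE of Tap1, Tap2 and Tapbp lay below that median.

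**Figure D3:**
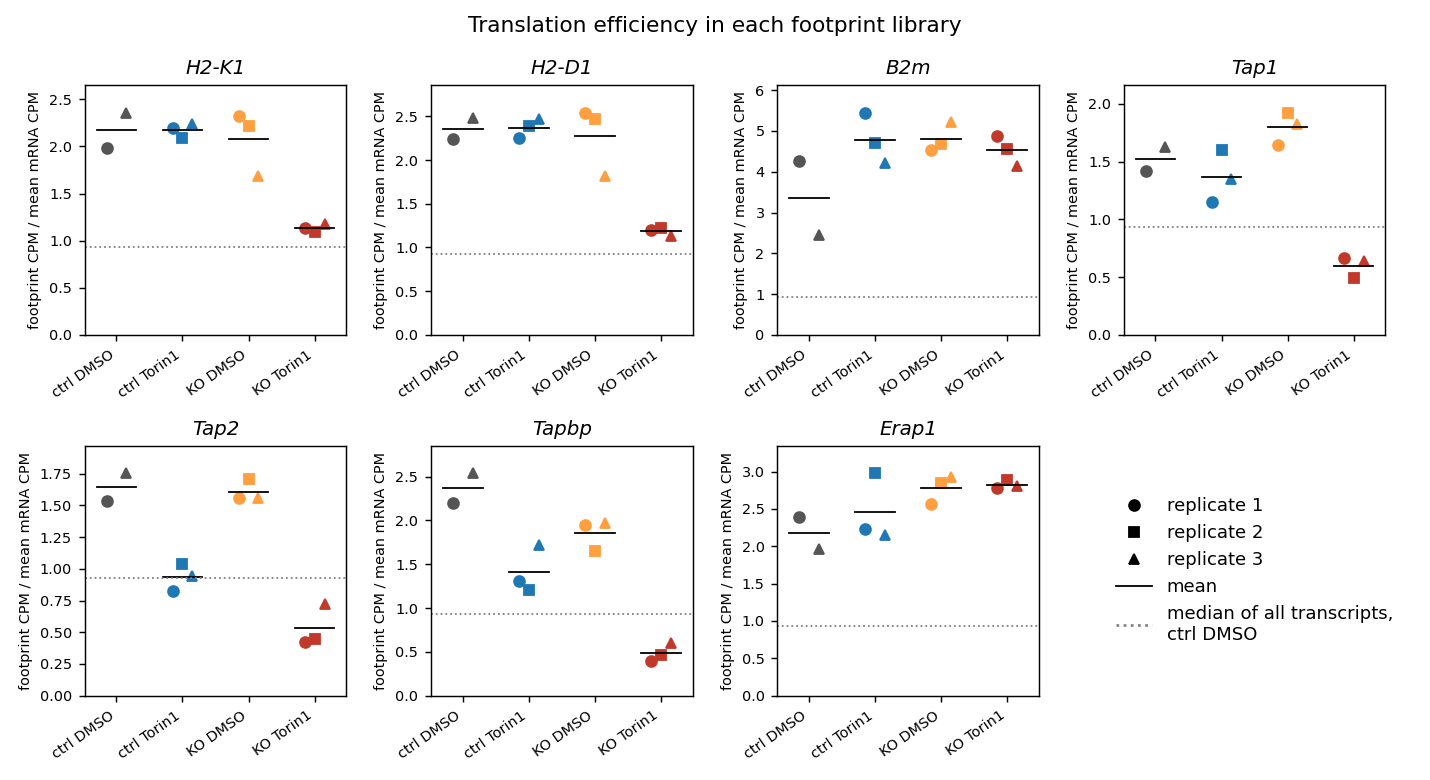
Translational efficiency (footprint CPM over the mean mRNA CPM of the condition) of each member in each Ribo-seq library; points are libraries, bars are means, and each panel has its own axis. Tapbp falls to a mean of 0.486 in KO Torin1 cells, and B2m and Erap1 stay at 4.53 and 2.83.

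In DMSO, no member passed edgeR's test between KO and ctrl cells in mRNA, footprints or TE, where 0.0183%, 0.0279% and 0% of all transcripts did (646 of 10924, 850 of 10757 and 416 of 10475 had an unadjusted p under 0.05). DESeq2 called no member either, and for the members only Erap1 footprints had an unadjusted p under 0.05. With replicate number (passage) as a block, mRNA had 866 calls over all transcripts in place of 2, and no member was among them. The largest member difference in footprints was that of Erap1 (0.46 log2, SE 0.17, adjusted p = 0.548), followed by B2m (0.34, SE 0.19). Erap1 footprints were higher in all KO DMSO libraries than in the ctrl DMSO libraries, and those of Tapbp were lower (-0.26, SE 0.17). The heavy chains differed by -0.16 (H2-K1, SE 0.17) and -0.13 log2 (H2-D1, SE 0.17).

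In Torin1, the contrast behind the choice, KO cells had fewer footprints than ctrl cells on 5 members. The difference was -1.61 log2 for Tapbp (SE 0.18), -1.35 for Tap1 (SE 0.29), -1.04 for Tap2 (SE 0.19), -1.01 for H2-D1 (SE 0.10) and -1.0 for H2-K1 (SE 0.10). B2m stood at -0.12 (SE 0.10) and Erap1 at 0.38 (SE 0.14). All KO libraries lay below all ctrl libraries for the same 5, as for 13% of transcripts, and an adjusted p under 0.05 was reached by 6.04% of transcripts in footprints, 1.96% in mRNA and 2.99% in TE. The mRNA differences of the 7 members were between -0.19 (Tap2) and 0.20 log2 (Erap1), and the TE differences between -1.56 (Tapbp) and 0.18 log2 (Erap1). The difference between the Torin1 responses of KO and ctrl cells in footprints was -1.54 for Tap1 (SE 0.34), -1.35 for Tapbp (SE 0.25), -0.89 for Tap2 (SE 0.24), -0.88 for H2-D1 (SE 0.19), -0.84 for H2-K1 (SE 0.19), -0.45 for B2m (SE 0.21) and -0.07 log2 for Erap1 (SE 0.22). Over all transcripts, 0.114% passed in that term.

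**Figure D4:**
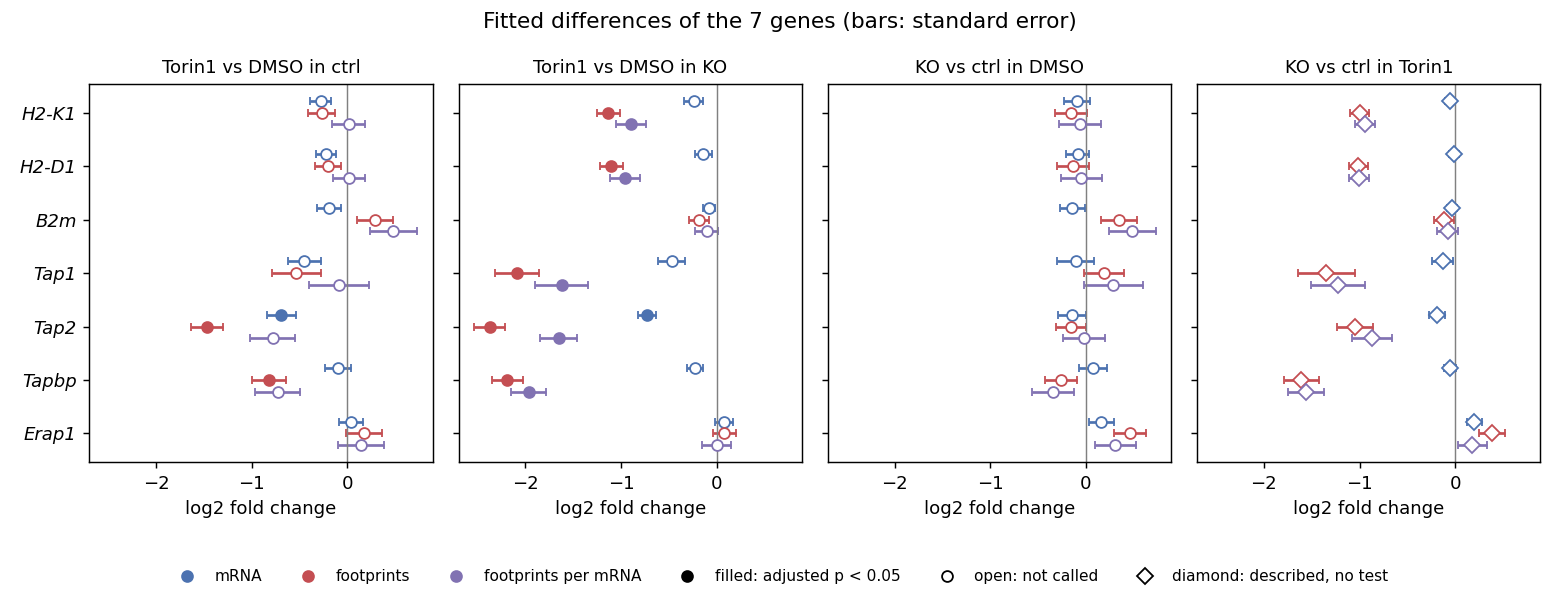
Fitted log2 differences of each member in mRNA, footprints and TE for the 4 comparisons, with bars of 1 SE. The KO response to Torin1 separates H2-K1, H2-D1, Tap1, Tap2 and Tapbp (footprints -1.10 to -2.37) from B2m (-0.19) and Erap1 (0.08).

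Of 22 other class I heavy chain and class I-like genes tested, 14 had lower footprints with Torin1 in KO cells, beside 22.1% of all transcripts, and 0 had higher, with a median of -1.13 log2. In ctrl cells 0 of 21 passed in edgeR or DESeq2 (1 at an unadjusted p under 0.05), with a median of -0.30. The 4 with the smallest p in KO cells were H2-Q7 (-1.25, SE 0.15, adjusted p = 3.11e-08), H2-Q10 (-1.19, SE 0.15, adjusted p = 1.53e-07), H2-Q1 (-1.26, SE 0.16, adjusted p = 1.77e-07) and H2-Q4 (-1.07, SE 0.14, adjusted p = 2.78e-07). Windows shared with H2 class I genes made up 47.4% of H2-Q7 and 26.7% of H2-Q10. They made up 2.39% of H2-M2 (-1.71, SE 0.37, adjusted p = 0.000426) and 6.31% of H2-M3 (-0.68, SE 0.23, adjusted p = 0.0168). H2-M2, H2-M10.2, H2-M10.3, H2-M10.4 and H2-T3, all called lower in footprints, were not among the genes tested in mRNA or TE. Since H2 rows share windows with each other and with H2-K1 and H2-D1, the 14 calls are not independent of each other. Only exact matches in the reference counted as shared, and whether such footprints came from other H2 genes was not tested. None of the class I-like genes outside the H2 names (Cd1d1, Mr1, Hfe, Fcgrt and Procr) passed in KO cells, and their condition means were at most 9.56 CPM. In TE, 7 of 15 fell in KO cells, beside 17.8% of all transcripts lower, and the same sharing of windows applies to them. In mRNA 0 of 15 passed in either genotype in edgeR (2 in ctrl and 1 in KO at an unadjusted p under 0.05), and DESeq2 called 1 in each.

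**Figure D5:**
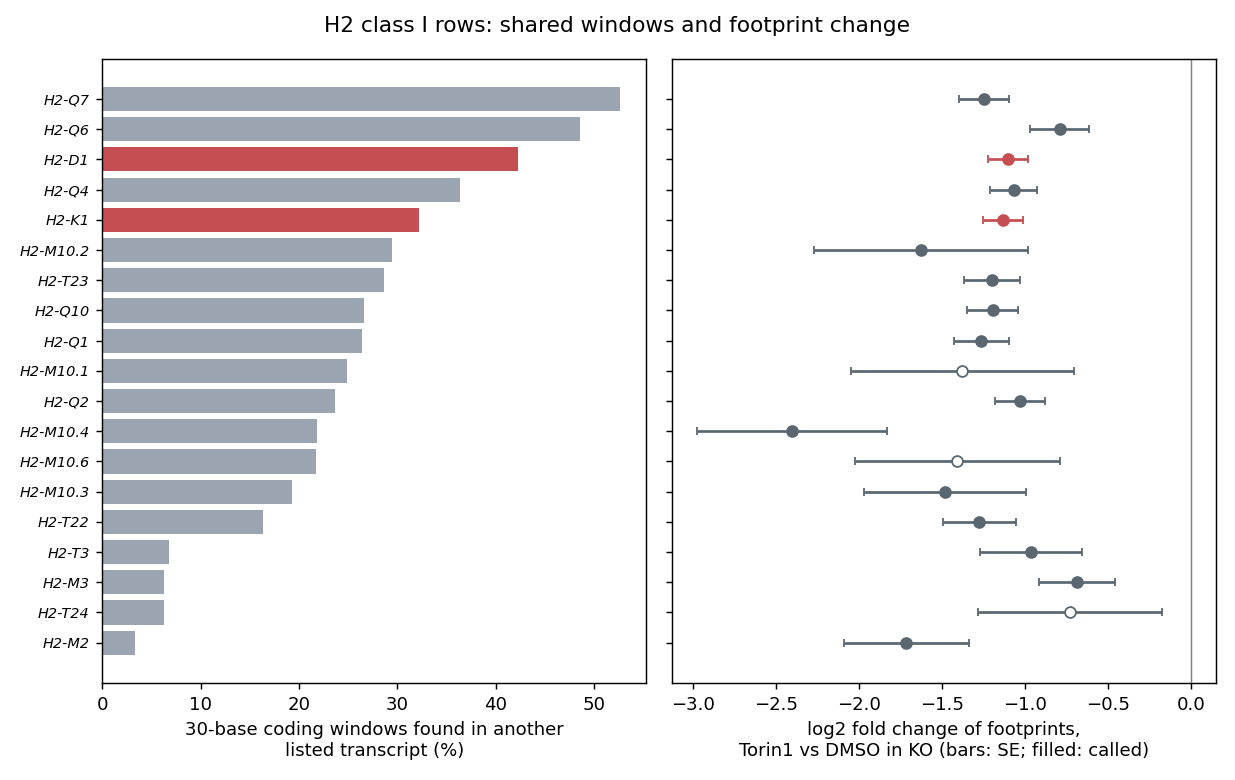
Listed H2 class I genes, with members in red. Left, the share (percent) of their 30-nt coding windows found in another listed transcript. Right, the fitted footprint change with Torin1 in KO cells (log2, bars 1 SE, filled points adjusted p under 0.05). All points lie below 0, from H2-Q7 with the highest share to H2-M2 with the lowest.

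Peptide loading partners, the chaperones and quality control enzymes that fold the heavy chain, included genes with lower footprints in KO cells. Of 10, 4 had lower and 1 had higher footprints with Torin1 in KO cells, a share near the 40.6% of all transcripts called there. The 4 were Ganab, a glucosidase II subunit (-1.27, SE 0.11, adjusted p = 5.45e-11), Pdia3, the disulfide isomerase of the loading complex (-0.70, SE 0.10, adjusted p = 1.22e-06), Calr, which is calreticulin (-0.60, SE 0.10, adjusted p = 1.11e-05), and Prkcsh, the other glucosidase II subunit (-0.36, SE 0.11, adjusted p = 0.00736). Hspa5, the chaperone BiP, rose by 0.28 (SE 0.10, adjusted p = 0.0238). In ctrl cells 0 of 10 passed in edgeR or DESeq2, also at an unadjusted p under 0.05. With no scaling beyond library size the counts were 3 lower and 3 higher in KO and 3 higher in ctrl cells. Over all transcripts that setting gave 1532 lower and 3766 higher of 10822 in KO, and 1691 higher of 10693 in ctrl cells. Ganab footprints were 761 ± 4.52 CPM in ctrl DMSO, 625 ± 36.3 in ctrl Torin1, 825 ± 64.9 in KO DMSO and 348 ± 45.6 CPM in KO Torin1. Ganab was the only one of the 10 to pass in the test of the difference between the genotypes' footprint responses (adjusted p = 0.00799).

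Of 19 peptide supply and trimming genes, 5 had lower and 1 had higher footprints with Torin1 in ctrl cells, and 11 and 1 in KO cells, beside 15.6% and 40.6% of all transcripts called in either direction (medians -0.37 and -0.53 log2). Hspa8, a cytosolic chaperone, fell by 2.18 log2 in ctrl (SE 0.13, adjusted p = 1.34e-09) and by 2.24 in KO cells (SE 0.12, adjusted p = 7.83e-17). Hsp90ab1 fell by 1.38 (SE 0.14, adjusted p = 9.57e-07) and 1.48 log2 (SE 0.10, adjusted p = 1.47e-13), and Thop1, a cytosolic peptidase, by 1.24 (SE 0.16, adjusted p = 1.79e-05) and 1.64 log2 (SE 0.16, adjusted p = 4.51e-10). Psmb6, a constitutive proteasome subunit, fell by 0.48 (SE 0.15, adjusted p = 0.0344) and 0.93 log2 (SE 0.11, adjusted p = 4.52e-08). None of the 19 passed in edgeR's test between the genotypes' footprint responses, with 2 at an unadjusted p under 0.05. With no scaling the counts were 3 lower and 2 higher in ctrl and 9 and 3 in KO cells. Over all transcripts these were 684 and 1691 of 10693 in ctrl, and 1532 and 3766 of 10822 in KO cells.

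Of 18 regulators of class I promoters, 1 had higher footprints with Torin1 in ctrl and 6 in KO cells, beside 5.69% and 18.5% of all transcripts called higher, and 0 had lower. With no scaling these were 3 and 13, beside 1691 of 10693 and 3766 of 10822 transcripts called higher in that setting, and still 0 lower. Irf2 rose in footprints by 0.85 log2 in ctrl (SE 0.21, adjusted p = 0.00853) and 0.97 in KO cells (SE 0.15, adjusted p = 6.23e-06), and in mRNA by 0.76 (SE 0.14, adjusted p = 0.0138) and 0.75 (SE 0.08, adjusted p = 0.000208). Rfx5, a subunit of the factor that binds class I and II promoters, rose in mRNA by 1.06 in ctrl (SE 0.18, adjusted p = 0.0105) and 0.80 in KO cells (SE 0.13, adjusted p = 0.00342). Nfkb1 footprints rose by 0.95 in KO cells (SE 0.18, adjusted p = 7.77e-05) and Irf1 footprints by 0.78 (SE 0.17, adjusted p = 0.000333). None passed in edgeR's test between the genotypes' footprint responses, with 1 at an unadjusted p under 0.05.

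Of 8 interferon receptors and signalling genes, 1 rose in ctrl (Jak1, 0.59, SE 0.16, adjusted p = 0.0145), beside 5.69% of all transcripts called higher. In KO cells 2 had lower and 1 had higher footprints, a share near the 40.6% of all transcripts called. With no scaling 0 of these genes were lower in KO cells, beside 1532 of 10822 transcripts. Of 14 interferon-stimulated genes, Bst2 and Ifitm2 had lower footprints in both genotypes (Bst2 -0.70 in ctrl and -1.03 in KO, Ifitm2 -0.69 and -0.87). Cxcl10 and Ifih1 had higher ones in KO cells, where DESeq2 called neither. The shares of the 14 called were not above the 15.6% (ctrl) and 40.6% (KO) of all transcripts called. Of 3 class II pathway genes tested, Cd74 (-0.82, SE 0.14, adjusted p = 1.95e-05) and Ctsb (-0.44, SE 0.11, adjusted p = 0.0014) had lower footprints in KO cells. Over all transcripts 22.1% were lower there. With no scaling Bst2 and Ifitm2 no longer passed in ctrl cells, and of the class II genes 1 did in KO cells. Cd74 is also a leukocyte marker, the only one of 14 in Ribo-seq, and its part in the members' result was not tested.

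Annotated 5′ leaders (GENCODE mouse release 21) were 90 nt for H2-K1, 384 for H2-D1, 52 for B2m, 327 for Tap1, 1105 for Tap2, 356 for Tapbp and 379 for Erap1, beside a median of 171 nt over the matched transcripts. The leaders were 51.7% to 59.6% GC, beside a median of 64.2%. None of the 7 began with a C that opened a run of at least 5 pyrimidines, as 2.34% of transcripts did. That start is a feature of terminal oligopyrimidine mRNAs that depend on mTOR. Tap2 and Tapbp began with pyrimidine runs of 9 and 5 nt that did not open with a C. The annotated start may not be the one used in these cells.

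Transcripts most like the members were found by Pearson r with the members' mean z-scored log2 level. In mRNA over 12 libraries they were Itgb5 (0.987), Tm2d2 (0.987), Tppp3 (0.977), Cyb5r1 (0.977) and Sac3d1 (0.972). In footprints over 11 libraries they were Gdpd1 (0.975), Hsd17b12 (0.970), Ttyh2 (0.966), Psmd2 (0.965) and Slc35a2 (0.963). B2m and Erap1 themselves had an r of 0.21 and -0.28 with this profile in footprints. When only the 5 members with lower KO Torin1 footprints formed it, a choice made after the values were seen, the list was Ybx1 (0.985), Grn (0.983), Psap (0.979), Gusb (0.979) and Srebf2 (0.979). The libraries share treatments, so these r are descriptions.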

How the data were processed

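Mouse N2a cells were profiled by RNA-seq and Ribo-seq; 12 Ribo-seq libraries are labelled, of which 11 were used (replicate 2 of ctrl DMSO: not analysed here). The authors deposited raw counts per transcript: cycloheximide footprints of 25 to 35 nt were trimmed with cutadapt, aligned with HISAT2 (mm10) and bowtie2 to canonical Ensembl transcripts, and P-sites placed by riboWaltz were counted over the coding sequence, as were stranded RNA-seq reads overlapping it. Tool versions are not given in the sources used here. The 8 tables also hold the authors' fold changes, p-values and FDR, and other tables their TE estimates, which were not used. Columns of the RNA-seq table of KO versus ctrl in DMSO carry names that repeat, so these libraries entered without a number; the block fits took the same counts from the Torin1 tables.

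Transcripts with CPM over 1 in all libraries of a condition were tested with edgeR 4.0.16 (R 4.3.3, limma 3.58.1; TMM, quasi-likelihood, Benjamini-Hochberg over all transcripts, threshold 0.05) in each pair of conditions; TE was the interaction of assay and condition. Alternatives were DESeq2 1.42.0, other scaling or filters, all 4 conditions fitted together, H2 rows summed, the replicate block and leaving out each library. Members and lists were chosen with earlier results of these data known. All members were named; in each list at most the 4 smallest adjusted p values per comparison, or all where 5 or fewer passed. Genes most like the members were the 5 highest r among transcripts with a mean of at least 50 counts (pseudocount 1). The fits of each pair of conditions, within an assay and for TE, were tested on simulated counts. The other steps were not. The labels say that replicate numbers are passages, so they pair libraries. The tests as reported did not use this pairing, which entered only with the replicate block. Deviations of same-numbered libraries correlated at 0.04 to 0.737 in RNA-seq and -0.0386 to 0.144 in Ribo-seq (other pairs -0.589 to 0.431 and -0.144 to 0.123). Reads were not collapsed to molecules, so depth bounds counting error only.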

Additional observations from a re-analysis of the deposited data

How the results depend on the processing

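The 5 members with lower footprints and lower TE with Torin1 in KO cells passed under every alternative run, leaving out each library included. These runs use the KO Torin1 libraries of the contrast behind the choice and are not independent of it. No alternative gave a member call for KO versus ctrl in DMSO. With no scaling beyond library size, Erap1 footprints rose with Torin1 in KO cells (0.33, adjusted p = 0.0266), and the median of all transcripts was 0.23 and 0.265 log2 for Torin1 footprints in ctrl and KO and 0.153 and 0.218 for TE. The calls went from 2390 lower and 2003 higher to 1532 and 3766 (KO footprints), from 1062 and 608 to 684 and 1691 (ctrl footprints), from 1875 and 1113 to 1230 and 2527 (KO TE), from 451 and 41 to 327 and 162 (ctrl TE) and from 105 and 111 to 72 and 128 (mRNA, KO versus ctrl in Torin1). Under it H2-D1 ctrl footprints were at 0.011, Tap1 ctrl TE at 0.067, B2m KO footprints at 0.060 and B2m KO TE at 0.12, and members called in ctrl mRNA went from 1 to 0 (Tap2 adjusted p = 0.0568). With H2 rows summed, ctrl TE of H2-K1 and H2-D1 was at -0.014. The cause of these shifts was not tested.

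Members called in ctrl TE were 0 as reported, 1 with DESeq2, 1 with the replicate block and 2 with all 4 conditions fitted together, and in KO mRNA 1 as reported, 2 with DESeq2 and 3 with the replicate block. The block also added B2m to the ctrl footprints and changed no other member call. Over all transcripts it gave 1328 calls for 299 (ctrl mRNA), 1797 for 1097 (KO mRNA), 866 for 2 and 1041 for 216 (mRNA of KO versus ctrl in DMSO and in Torin1) and 553 for 314 (TE of KO versus ctrl in Torin1). With all 4 conditions fitted together these were 1221, 557, 19, 6 and 73, footprints of KO versus ctrl in Torin1 had 411 for 652, and ctrl TE had 838 for 492. DESeq2 gave 723 (ctrl mRNA), 956 for 1670 (ctrl footprints), 21, 342 and 422 (mRNA of KO versus ctrl in DMSO and Torin1, footprints in Torin1) and 506 (TE of KO versus ctrl in Torin1), and limma-voom 158 for the last. The scaling counts of the gene lists were added after seeing the data. Without a low count filter, mRNA of KO versus ctrl in DMSO had 4 calls.

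Leaving out 1 library at a time gave 114 to 1465 calls in ctrl mRNA, at the ends without ctrl Torin1 replicate 2 and without ctrl DMSO replicate 3. The lowest counts were 725 in ctrl footprints (without ctrl DMSO replicate 1), 316 in ctrl TE (the same library), 438 in KO mRNA (without KO Torin1 replicate 2), 6 in mRNA of KO versus ctrl in Torin1 (without ctrl Torin1 replicate 3), and 344 and 171 in its footprints and TE (without KO Torin1 replicate 2). Members called were then 0 to 2 in ctrl mRNA, 0 to 2 in ctrl TE and 1 to 3 in KO mRNA. Differences that changed sign, none of them called as reported, spanned -0.025 to 0.78 (B2m) and -0.0020 to 0.38 (Erap1) in ctrl footprints. In ctrl TE they spanned -0.11 to 0.13 (H2-K1), -0.057 to 0.084 (H2-D1), -0.23 to 0.054 (Tap1) and -0.036 to 0.34 (Erap1), and in KO TE -0.081 to 0.066 (Erap1). For KO versus ctrl in DMSO they spanned -0.26 to 0.042 (Tap1), -0.28 to 0.0078 (Tap2) and -0.050 to 0.15 (Tapbp) in mRNA, and -0.20 to 0.066 (H2-K1), -0.14 to 0.083 (H2-D1) and -0.17 to 0.12 (Tap2) in TE. For KO versus ctrl in Torin1, over all alternatives run, H2-D1 spanned -0.037 to 0.033 in mRNA and B2m -0.16 to 0.018 in TE. A pseudocount of 0.1 left the 5 most similar genes as they were in both assays. With 5 members in the profile 0 were shared. Depth limits Tap1 most, at 13 to 19 footprint counts per KO Torin1 library.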
